A study of Ovis aries with 4 samples.

Results

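Mitochondrially encoded messenger RNAs were examined in 4 sheep conceptuses. The 10 genes, COX1, MT-CO2, MT-ATP6, ND2, ND3, ND4, ND4L, MT-ND1, MT-ND5 and MT-ND6, were selected by name among the 25197 features of the deposited table. They were chosen with their levels in these libraries known, including the high value of MT-CO2 in conceptus 3, so their levels are given as a description and carry no test. The table holds 3 further protein genes of the mitochondrial genome, COIII, CYT.B and MT-ATP8, which are set beside the 10 where they bear on them. Each library is total RNA, depleted of ribosomal RNA, from 1 conceptus (the embryo with its extraembryonic membranes) flushed from the uterus on day 14 of pregnancy. The 4 ewes were Columbia and Rambouillet crossbreds, 1 conceptus was taken from each, and no treatment, genotype or sex is given. All 4 form 1 group, so the values below are levels and their spread between animals.

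Mitochondrial DNA encodes 13 subunits of the respiratory chain and of ATP synthase, the enzymes that turn the oxidation of nutrients into ATP. Its strands differ in base composition and are named heavy and light. In mammals, long transcripts of nearly the whole genome are cut, mostly at the transfer RNAs that lie between the coding genes, to release the messenger RNAs. All protein genes but ND6 are read from the heavy-strand promoter, and ND6 is the only one read from the light-strand promoter. The remaining subunits, and all proteins that transcribe, cut and stabilise these RNAs, are encoded in the nucleus and imported. The trophectoderm of an elongating ruminant conceptus grows fast and uses both glycolysis and respiration.

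The libraries carried the profile of trophectoderm, the outer epithelium of the conceptus. All 8 measured trophectoderm markers averaged at least 1 RPKM (reads scaled to feature length and library size), against 52.9% of features with a symbol. Their summed level ranged from 19592 to 35041 RPKM, nearly all of it TP-1 and KRT8, at means of 20347 and 6211 RPKM. CDX2 averaged 11.9 RPKM and ELF5 2.96 RPKM. Of the 7 measured extraembryonic endoderm markers, 4 averaged at least 1 RPKM. The 7 summed to 214 to 452 RPKM, nearly all of it the apolipoprotein gene APOA1. HNF4A averaged 3.7, GATA4 1.87 and GATA6 1.1 RPKM. Endometrial markers summed to 3.99 to 9.94 RPKM, most of it WNT7A at a mean of 5.04 RPKM, with PGR listed at 0. WNT7A was the 1 marker of the 6 measured that averaged at least 1 RPKM. Leukocyte markers summed to 1.23 to 2.24 RPKM, and blood markers to 0.17 RPKM or less with HBM listed at 0. A value listed at 0 need not mean that the RNA was absent: NDUFS6, a complex I subunit gene that respiring cells use, was also listed at 0 in all 4 libraries. The summed RPKM of a library ranged from 454387 to 522308. The number of reads behind it is unknown, so no counting interval can be given. In bulk RNA a lower level may come from fewer cells of a type or from less RNA per cell, and these cannot be told apart.

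COX1, the catalytic core subunit of cytochrome c oxidase (complex IV), had by far the highest RPKM of the mitochondrial messenger RNAs. It was at 2066, 2154, 1806 and 1288 RPKM in conceptuses 1 to 4, a mean of 1829 ± 389 RPKM (SD, n = 4). Its lowest library lay above the highest library of each of the other 12 mitochondrial features, and it ranked 11 among the 15226 features with a symbol. COX1 made up 53.0% to 73.2% of the summed RPKM of the 10 genes. The lowest share was in conceptus 3, where MT-CO2 held 26.6% of the sum, and the next lowest was 62.2% in conceptus 2. The RPKM scale is per length, and levels of different genes are set side by side on it here. How reads in overlapping genes or shared with nuclear copies were counted is not given, so comparisons between genes carry that uncertainty.

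The genes of complex I, the NADH dehydrogenase that feeds electrons into the chain, spanned a wide range. ND3 was at 152, 306, 165 and 107 RPKM in conceptuses 1 to 4, a mean of 182 ± 85.9 RPKM (SD, n = 4). Means were 147 ± 42.4 RPKM for ND4, 144 ± 69.2 for ND4L, 92.7 ± 49.6 for ND2, 68.4 ± 33.8 for MT-ND5, 34.9 ± 13.1 for MT-ND1 and 26.7 ± 14.6 for MT-ND6. MT-ATP6, the membrane subunit of ATP synthase (complex V) that forms its proton path, was at 89.7, 179, 78.6 and 48.4 RPKM, a mean of 99.0 ± 56.3 RPKM. Conceptus 2 was the highest library and conceptus 4 the lowest for both ND3 and MT-ATP6. MT-CO2, the subunit of complex IV that accepts electrons from cytochrome c, had a mean of 254 ± 434 RPKM, set by 1 library as described below.

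Of the 3 other mitochondrial features, CYT.B, the central subunit of complex III, was at 310 ± 121 RPKM (SD, n = 4). COIII, another core subunit of complex IV, was at 215 ± 103 RPKM. MT-ATP8, a small subunit of ATP synthase, gave 3.03, 4.08 and 2.11 RPKM in the first 3 conceptuses, a 0 in conceptus 4, and the lowest value of the 13 in every library. In the order of means, COX1, CYT.B, MT-CO2, COIII, ND3, ND4, ND4L, MT-ATP6, ND2, MT-ND5, MT-ND1, MT-ND6 and MT-ATP8, neighbours had overlapping ranges over the 4 libraries in every case but the first and the last. Of the 10 neighbouring pairs with overlapping ranges, 4 kept their order in each library: ND4L exceeded MT-ATP6, ND2 exceeded MT-ND5, MT-ND5 exceeded MT-ND1 and MT-ND1 exceeded MT-ND6 in 4 of 4 conceptuses. The other 6 pairs did not. CYT.B exceeded MT-CO2, ND3 exceeded ND4, ND4 exceeded ND4L and MT-ATP6 exceeded ND2 in 3 of 4, COIII exceeded ND3 in 2 of 4, and MT-CO2 exceeded COIII in 1 of 4. ND2 ranked 8 among the 13 in each library.

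**Figure D1:**
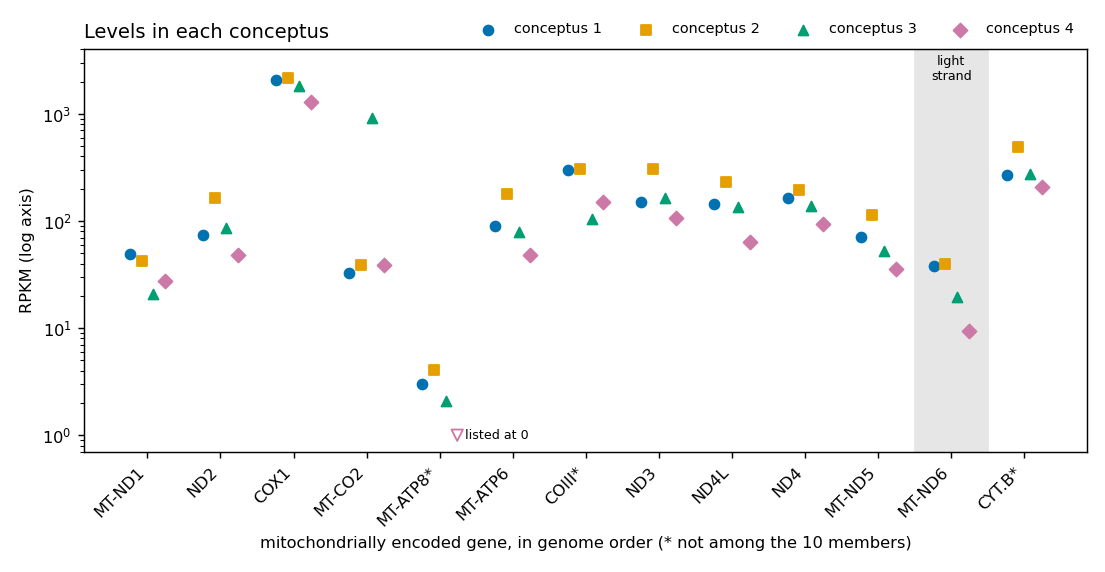
RPKM (log axis) of the 13 mitochondrially encoded genes in each of the 4 conceptuses, in the order of the genes along the mitochondrial genome, with 1 symbol per conceptus and the open triangle for a value listed at 0. COX1 lies between 1288 and 2154 RPKM, MT-CO2 is at 906 RPKM in conceptus 3 against 32.6 to 39.2 in the others, and the light-strand gene MT-ND6 (shaded) lies between 9.48 and 39.4 RPKM.

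Genes that share a transcript were compared within each library. ND4L and ND4 stay joined on a bicistronic messenger RNA in mammals and overlap at their junction. ND4L was at 143, 233, 135 and 63.8 RPKM in conceptuses 1 to 4. ND4 was at 162, 194, 139 and 93.3 RPKM in the same libraries. The ratio of ND4L to ND4 was 0.882, 1.20, 0.974 and 0.683, so ND4L was the higher of the pair in conceptus 2 only. On the log2(RPKM + 1) scale the difference was -0.12 ± 0.333 (SD, n = 4), smaller than its spread between libraries. MT-ATP8 and MT-ATP6 share a bicistronic messenger RNA in the same way, with a longer overlap. There MT-ATP6 was 29.6, 44.0 and 37.2 times MT-ATP8 in conceptuses 1 to 3, and MT-ATP8 was listed at 0 in conceptus 4. The pairs thus differed: ND4L and ND4 stood at like levels, and MT-ATP8 and MT-ATP6 did not. The sources used here do not say how reads in overlapping genes were counted, and the part of this step in the low MT-ATP8 values was not tested.

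MT-ND6, the complex I subunit read from the light-strand promoter, was at 38.3, 39.4, 19.7 and 9.48 RPKM in conceptuses 1 to 4. Conceptuses 1 and 2 were nearly equal, and conceptus 4 was the lowest. The median of the 9 heavy-strand genes among the 10 was 89.7, 179, 135 and 48.4 RPKM in the same libraries, which is 2.34, 4.55, 6.86 and 5.11 times MT-ND6. Within libraries the log2(RPKM + 1) difference of MT-ND6 from that median was -2.08 ± 0.632 (SD, n = 4), below 0 in 4 of 4. MT-CO2, 1 of the 9, raised this median in conceptus 3 and lowered it in the other libraries. With MT-CO2 left out, the median of the other 8 was 3.04, 4.74, 5.60 and 5.92 times MT-ND6, largest in conceptus 4. The mean log2 difference was then -2.14. All 9 heavy-strand genes exceeded MT-ND6 in conceptuses 3 and 4, and 8 of 9 did in conceptuses 1 and 2. The exception there was MT-CO2, at 32.6 and 39.2 RPKM.

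MT-ND6 was thus low but not set apart from the low end of the heavy-strand genes. MT-ND1, the first coding gene after the ribosomal RNAs, was at 49.4, 41.9, 20.8 and 27.4 RPKM. Its ranges and those of MT-ND6 overlapped, although MT-ND1 was the higher in each library. Relative to its genome neighbours, MT-ND6 was at 0.541, 0.344, 0.374 and 0.265 of MT-ND5 in conceptuses 1 to 4. CYT.B, on the other side of MT-ND6, exceeded it by 7.06, 12.3, 13.9 and 22.0 times. The libraries were strand-specific, but the sources used here do not say whether the counting used the strand. Without it, reads of MT-ND6 and of the heavy-strand RNA opposite it cannot be told apart. Reads shared with nuclear copies of mitochondrial DNA could likewise have been split or dropped, so absolute levels of all 13 features are uncertain.

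**Figure D2:**
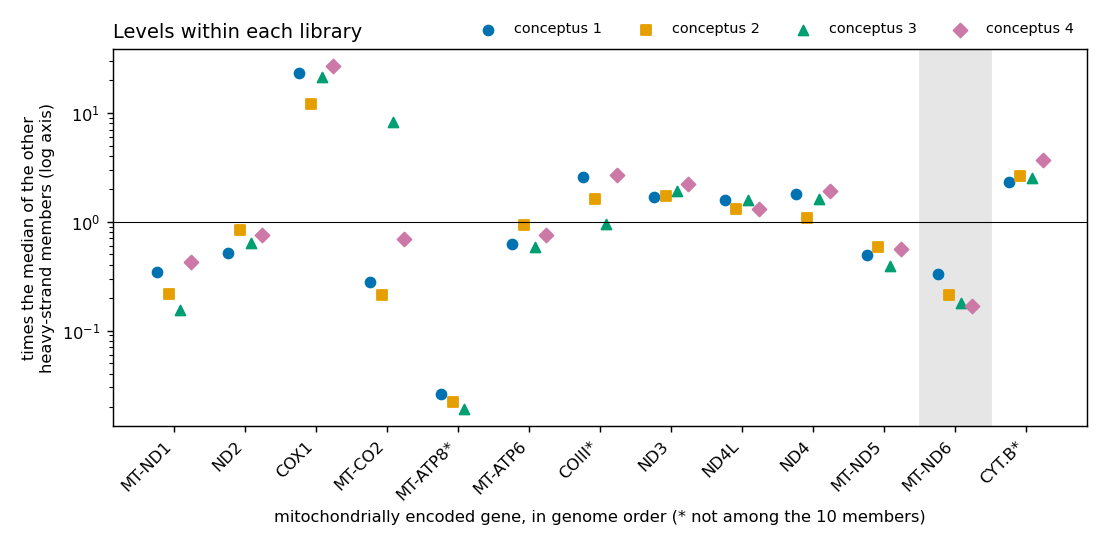
Level of each mitochondrially encoded gene divided, within its own library, by the median of the other heavy-strand genes among the 10 with MT-CO2 left out (log axis), 1 symbol per conceptus, the MT-ATP8 value listed at 0 not drawn. ND4L stays within 1.30 to 1.60 times and MT-ND6 within 0.169 to 0.329 times, whereas MT-CO2 is at 8.21 times in conceptus 3 and at 0.210 to 0.698 times in the others.

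MT-CO2 had the widest spread between conceptuses of the 10 genes, with 32.6, 39.2, 906 and 39.2 RPKM in conceptuses 1 to 4. Conceptuses 1, 2 and 4 lay close together, at 37.0 ± 3.80 RPKM (SD, n = 3), and conceptus 3 was 24.5 times their mean. Without conceptus 3 the highest library was 1.20 times the lowest, and MT-CO2 ranked 11 of the 13 genes by mean in place of 3. It was the second highest mitochondrial gene in conceptus 3, and ranked 12, 12 and 9 in conceptuses 1, 2 and 4.

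The other complex IV subunits did not share this pattern. COX1 exceeded MT-CO2 by 63.4, 54.9, 1.99 and 32.9 times in conceptuses 1 to 4, a log2(RPKM + 1) difference of MT-CO2 from COX1 of -4.42 ± 2.32 (SD, n = 4) and of -5.56 without conceptus 3. COIII was at 301, 303, 105 and 149 RPKM, so that conceptus 3 was its lowest library. MT-CO2 was 8.61 times COIII in conceptus 3 and 0.108 to 0.262 times COIII in the others. With the 3 added together, the mitochondrial subunits of complex IV summed to 2400, 2497, 2817 and 1477 RPKM. The adjacent heavy-strand genes were not high beside MT-CO2 in conceptus 3: MT-ATP6 was at 78.6 RPKM there and MT-ATP8 at 2.11 RPKM, both under their values in conceptuses 1 and 2.

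A value this far above the rest was rare in the table. MT-CO2 was chosen with this value known, so the counts below only describe it. Among the 6374 features averaging 5 RPKM or more, the highest library exceeded the second highest by over 10 times in 4 features, or 0.0628%. MT-CO2 was 1 of these, at 23.1 times. Of the other 3, 2 were also highest in conceptus 3 and 1 in conceptus 2, and none of the 3 has a symbol in the table. By the ratio of highest to lowest library, MT-CO2 ranked 17 of the 6374.

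**Figure D3:**
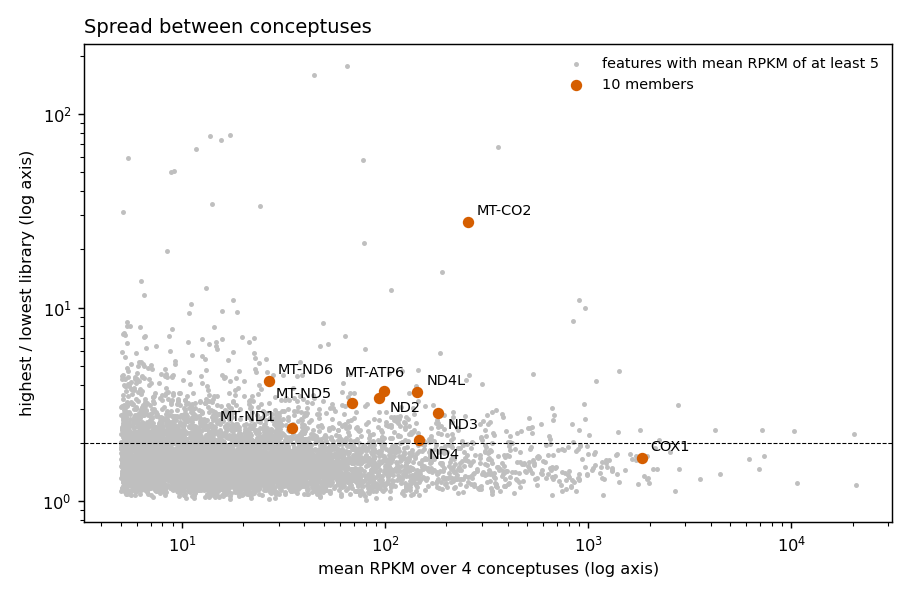
Ratio of the highest to the lowest of the 4 libraries against mean RPKM (both log axes) for features averaging 5 RPKM or more (grey, the 2 of 6374 with a library at 0 not drawn) and for the 10 mitochondrial genes (coloured), the dashed line at 2 times. MT-CO2 is at 27.8 times, COX1 at 1.67 times and the other 8 genes between 2.08 and 4.15 times.

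The other genes also varied between conceptuses, and mostly in the same direction. The ratio of highest to lowest library was over 2 for 9 of the 10 genes, all but COX1, against 21.9% of the 6374 features, and over 4 for MT-CO2 and MT-ND6, against 2.35%. The median ratio over the 6374 features was 1.59. The 10 genes were chosen with these values known, so nothing about them is read from these counts. Without conceptus 2 the count over 2 times was 4, against 12.8% of features.

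For 8 of the 10 genes conceptus 2 was the highest library and conceptus 4 the lowest, an order seen in 12.0% of the 6374 features. The exceptions were MT-CO2 and MT-ND1, whose highest library was conceptus 1 and lowest conceptus 3. The 8 held this order when the libraries were scaled to a common total, with or without the mitochondrial features, or by median ratios. Of the features whose scaled mean reached 5, 20.1%, 20.4% and 16.3% in turn showed this order. Of the 3 other mitochondrial features, CYT.B and MT-ATP8 had the same order, and COIII was highest in conceptus 2 but lowest in conceptus 3.

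For 6 of the 10 genes the spread narrowed by over 2 times when each library was set to its own heavy-strand level. The share of all features that would narrow in this way was not computed, so nothing is read from the count. Most genes of the divisor share their highest and lowest library, and a gene with that order tends to narrow. ND4L ranged 3.65-fold between libraries, but only 1.23-fold when divided by the median of the other heavy-strand genes (MT-CO2 left out) of its own library. The corresponding ranges were 2.85-fold and 1.31-fold for ND3, 3.20-fold and 1.51-fold for MT-ND5, 3.70-fold and 1.59-fold for MT-ATP6, 3.41-fold and 1.62-fold for ND2, and 4.15-fold and 1.94-fold for MT-ND6. ND4 narrowed little, from 2.08-fold to 1.78-fold, as did COIII outside the 10, from 2.88-fold to 2.79-fold. COX1 and MT-ND1 went the other way, from 1.67-fold to 2.22-fold and from 2.38-fold to 2.80-fold. COX1 was 12.0 times that median in conceptus 2 and 21.1 to 26.6 times in the other 3. The level of COX1 thus varied least between conceptuses, and its proportion to the other heavy-strand genes varied more. The ranges between libraries rest in part on single conceptuses. Without conceptus 2 they were 1.53-fold for ND3, 1.98-fold for MT-ND5, 1.85-fold for MT-ATP6, 1.79-fold for ND2 and 2.24-fold for ND4L. Without conceptus 4 they were 1.72-fold for ND4L, 2.00-fold for MT-ND6, 2.28-fold for MT-ATP6 and 2.20-fold for ND2.

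The 10 genes together held 0.577%, 0.762%, 0.723% and 0.337% of the summed RPKM of conceptuses 1 to 4, or 0.600 ± 0.192% (SD, n = 4). The share in conceptus 2 was 2.26 times that in conceptus 4. Without MT-CO2 the shares were 0.570%, 0.754%, 0.531% and 0.330%, which puts conceptus 3 below conceptus 1. MT-CO2 made up 26.6% of the summed RPKM of the 10 genes in conceptus 3 and 1.13% to 2.22% in the others. All 13 mitochondrial features held 0.406% to 0.937%.

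The nuclear genes for subunits of the same complexes, added up per list, had their highest and lowest libraries elsewhere than the mitochondrial genes. The sums are of values as deposited, and their order under the 3 scalings was not examined. The 9 mitochondrial genes other than MT-CO2 summed to 2845, 3425, 2502 and 1721 RPKM. The 28 measured nuclear complex I genes summed to 2312, 2032, 1988 and 2344 RPKM, with conceptus 4 the highest library, close to conceptus 1, and NDUFS6 listed at 0. Their highest members were NDUFB9 at 165 ± 37.8, NDUFS5 at 161 ± 34.5 and NDUFV2 at 128 ± 8.37 RPKM (SD, n = 4). NDUFB8, NDUFAB1 and NDUFB1 were over 2 times between libraries, NDUFB1 most at 4.01 times and a mean of 5.51 RPKM. Of the 27 averaging 5 RPKM or more, these were the 3 over 2 times, against 21.9% of the 6374 features, and 2 were highest in conceptus 2 and lowest in conceptus 4, against 12.0%. Counts this small are not read as a difference from all features. The median nuclear complex I gene was at 89.1, 68.8, 69.9 and 93.0 RPKM, and the median of the 7 mitochondrial ones at 74.2, 163, 85.5 and 47.9 RPKM. Mitochondrial genes were therefore the higher by median in conceptuses 2 and 3, and nuclear genes in conceptuses 1 and 4.

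Nuclear complex IV genes, 8 of them measured, summed to 1483, 919, 1096 and 1383 RPKM, with conceptus 2 the lowest library. COX4I1, a regulatory subunit, was the highest at 375 ± 74.7 RPKM (SD, n = 4), followed by COX5B at 334 ± 103 and COX6B1 at 292 ± 61.5 RPKM. None approached the mean of COX1. The 1 nuclear complex IV gene averaging 5 RPKM or more that was over 2 times between libraries was COX7A2, at 97.2, 46.4, 84.0 and 124 RPKM, again lowest in conceptus 2. The 12 measured nuclear complex V genes summed to 4048, 2921, 3083 and 3672 RPKM. Their highest members were ATP5G3, a gene for the membrane ring, at 887 ± 248 RPKM, and the catalytic-head genes ATP5A1 at 666 ± 21.9 and ATP5B at 388 ± 31.6 RPKM, against 99.0 RPKM for MT-ATP6. ATP5D, ATP5I and ATP5G1 were over 2 times between libraries, at 2.46, 2.37 and 2.01 times. Of the nuclear genes averaging 5 RPKM or more, 0 of 5 in complex IV and 0 of 12 in complex V had the order seen in the 8 mitochondrial genes, against 12.0% of the 6374 features, and too few genes were measured to set these counts apart from that share.

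**Figure D4:**
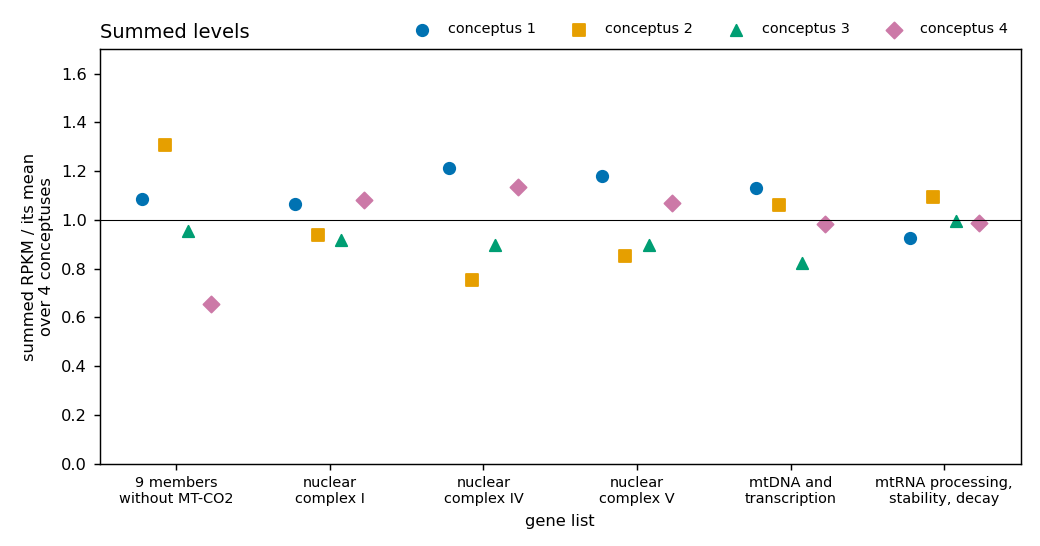
Summed RPKM of each gene list in each conceptus divided by the list's mean over the 4 conceptuses, with the y axis from 0 and 1 symbol per conceptus. The 9 mitochondrial genes other than MT-CO2 are highest in conceptus 2 and lowest in conceptus 4, whereas nuclear complex IV and V genes are lowest in conceptus 2.

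Genes that act on mitochondrial DNA and RNA were described from lists written with earlier results of these data known. Of 15 measured genes of mitochondrial DNA maintenance and transcription, 14 averaged at least 1 RPKM and 9 at least 5, with a median of 7.44 RPKM, against 52.9% and 35.2% of the features with a symbol, whose median was 1.43 RPKM. The highest were SSBP1, the single-stranded DNA binding protein of mitochondria, at 49.1 ± 8.09 RPKM (SD, n = 4), MTERFD2, a member of the mitochondrial termination factor family, at 34.8 ± 6.38, and the protease LONP1 at 30.8 ± 2.93 RPKM. The list summed to 223, 209, 163 and 194 RPKM in conceptuses 1 to 4. Of the 9 genes averaging 5 RPKM or more, 0 had the order of the 8 mitochondrial genes, against 12.0% of the 6374 features. Nothing is read from so small a count. TFAM, which packages mitochondrial DNA and starts its transcription, was at 17.3, 23.4, 13.2 and 14.0 RPKM, highest in conceptus 2 and lowest in conceptus 3. POLRMT, the mitochondrial RNA polymerase, was at 18.5, 16.9, 11.9 and 17.9 RPKM. POLG, the DNA polymerase, was the only member averaging 5 RPKM or more that was over 2 times between libraries, at 13.3, 7.29, 8.78 and 15.3 RPKM, and the topoisomerase gene TOP1MT was listed at 0.

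Of 25 measured genes of mitochondrial RNA processing, stability, decay and translation, all averaged at least 1 RPKM and 22 at least 5. The shares of the features with a symbol were 52.9% and 35.2%. The median of the 25 was 12.6 RPKM. SLIRP, which with LRPPRC forms a complex that stabilises mitochondrial messenger RNAs, was the highest at 210 ± 22.7 RPKM (SD, n = 4). REXO2, an exonuclease that degrades short RNAs, followed at 180 ± 63.4 RPKM, and HSD17B10, a subunit of mitochondrial RNase P, at 79.3 ± 21.1 RPKM. LRPPRC was at 36.2, 52.7, 42.6 and 33.3 RPKM, and had the order of the 8 mitochondrial genes. In all, 5 of the 22 had it, against 12.0% of all features as deposited and 16.3% to 20.4% after scaling. Nothing is read from so small a count. Of the 22, 2 were over 2 times between libraries, against 21.9% of the 6374 features: REXO2, at 94.9, 192, 248 and 186 RPKM, and SUPV3L1, the helicase of the mitochondrial RNA decay complex, at 19.3, 29.3, 14.1 and 13.9 RPKM. REXO2 was lowest in conceptus 1 and highest in conceptus 3.

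Features with the most similar pattern over the 4 conceptuses were found by the distance between log2(RPKM + 1) values centred on their own mean, among features with a symbol averaging 5 RPKM or more. With only 4 libraries and 5356 or more features, close neighbours are found for common patterns, and no shared role is read from them. The median pattern of the 8 heavy-strand genes other than MT-CO2 was 0.10, 0.78, -0.10 and -0.78 on that scale in conceptuses 1 to 4. With those 8 genes left out, AMMECR1 (distance 0.0374), SMIM15 (0.116), the splicing factor gene SNRNP27 (0.216), the RNA polymerase III subunit gene POLR3G (0.234) and the ribosome-associated chaperone gene DNAJC2 (0.253) were nearest. All 5 are nuclear genes.

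For MT-ND6 the nearest were PKD2L1, a channel gene (0.609), FAM133B (0.651), ND4L (0.662), MT-ND5 (0.681) and the transporter gene SLC16A9 (0.685). MT-ND5 is the genome neighbour of MT-ND6 on the opposite strand. For MT-CO2 no feature with a symbol came close. The nearest were SLC35G1 at a distance of 2.32, SEPP1, the gene of a secreted selenoprotein, at 2.33, NRN1 at 2.55, C6orf211 at 2.58 and the fatty acid elongase gene ELOVL5 at 2.64. SEPP1 was at 21.0, 40.6, 260 and 107 RPKM, so that conceptus 4 was high together with conceptus 3, unlike MT-CO2. Features without a symbol were not searched. Such a feature was at 21.8, 4.62, 269 and 14.1 RPKM in conceptuses 1 to 4, also highest in conceptus 3. The distance from MT-CO2 to the other 12 mitochondrial features ran from 4.02 for COX1 to 5.08 for COIII.

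**Figure D5:**
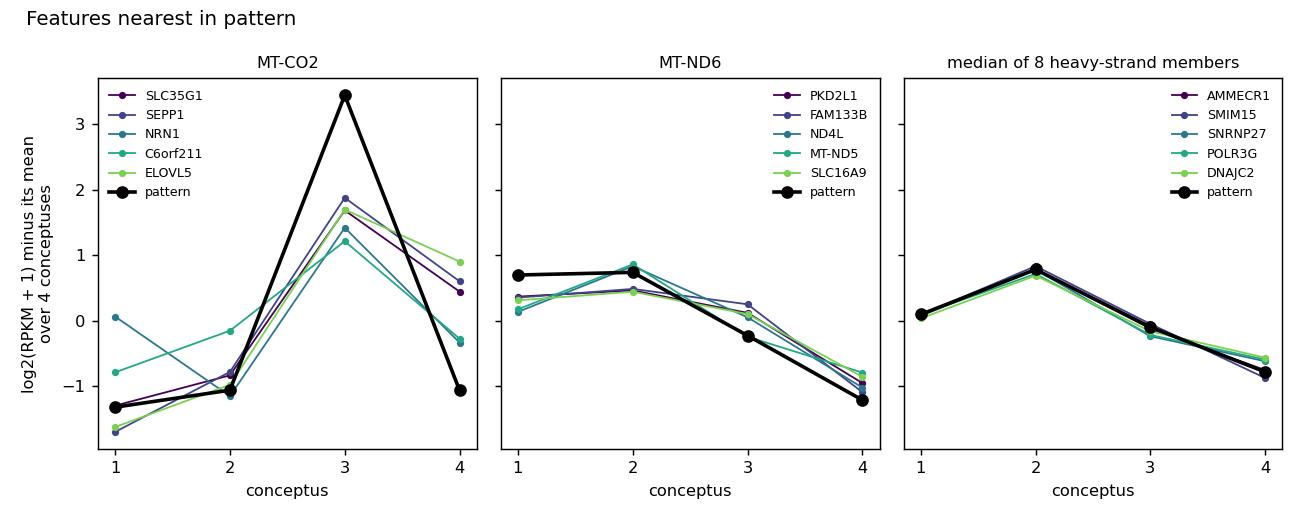
Pattern over the 4 conceptuses (x axis) as log2(RPKM + 1) minus its own mean (y axis) for MT-CO2, MT-ND6 and the median of the 8 heavy-strand genes other than MT-CO2 (black), each with its 5 nearest features (coloured). Only features with a symbol were searched. Lines join the values of a feature and imply no order of the conceptuses. The neighbours of MT-CO2 lie at distances of 2.32 to 2.64, those of MT-ND6 at 0.609 to 0.685 and those of the heavy-strand median at 0.0374 to 0.253.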

How the data were processed

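RNA from 4 conceptuses was depleted of ribosomal RNA, made into strand-specific libraries from 20 ng, sequenced 3 per chip (Ion Proton) and base-called by Torrent Suite 4.0.2, per the labels' protocols. The submitters' processing notes name Oar_v3.1 as build. Aligner, counter, annotation release, use of strand and the libraries sharing a chip: not given in the sources used here. RPKM values were computed and deposited by the authors, and the unit is named by a second deposited sheet of 5527 features whose values are identical. The 10 genes and all lists were chosen with earlier results of these data known.

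Members were matched by the first column. Gene order came from the RefSeq table of assembly ARS-UI_Ramb_v3.0, where 13 of 13 mitochondrial protein genes matched by symbol, synonym or protein accession; strand and complex are background knowledge. Ribosomal and transfer RNA genes of mitochondria were not analysed here, and sequences were not used. Log2 values used a pseudocount of 1, which understates differences of low genes. The background was features averaging 5 RPKM or more. A factor between 2 libraries is a size, not a test, and no p-value was computed. Named genes are the 10, the other 3 mitochondrial features, the 5 nearest features of each of 3 patterns (a pattern's own genes left out), and, of each list of nuclear mitochondrial genes (not the marker lists), the 3 highest members and up to 5 averaging 5 RPKM or more with the largest ratio over 2 times between libraries; TFAM, POLRMT, LRPPRC and the genes listed at 0 were named after their values were seen. The search for similar patterns was tested on simulated data. Alternatives were a pseudocount of 0.1, 3 scalings of the libraries, other filters and leaving out each conceptus. Python 3.11.15, numpy 2.4.6, pandas 2.3.3 and matplotlib 3.10.9 were used.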

Additional observations from a re-analysis of the deposited data

Results flagged for a closer look

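MT-CO2 was at 906 RPKM in conceptus 3, far from the other 3 conceptuses, and the gap to the next library was 0.992 of the whole range. It was the only one of 25 sets of 4 values (the 13 mitochondrial features, their ratios and their shares) in which a lone library stood out by this measure; chance gives about 1 in 20, or 1.25 sets. The value was known when the gene was chosen, so the measure describes it and adds no support.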

How the results depend on the processing

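The number of the 10 genes over 2 times between libraries was 9 under each of 3 scalings and 4 to 9 when 1 conceptus was left out, lowest without conceptus 2. Leaving a conceptus out makes the range narrower by construction, and the share of all features over 2 times was then 12.8% to 16.1%. MT-CO2 ranged 1.20-fold without conceptus 3. By over 1.5 times, the ranges of ND2, MT-ATP6, ND3, ND4L and MT-ND5 narrowed without conceptus 2 (to 1.53-fold to 2.24-fold), and those of ND2, MT-ATP6, ND4L and MT-ND6 without conceptus 4 (to 1.72-fold to 2.28-fold). ND4L against ND4, whose libraries lie on both sides of 0, was -0.25 to 0.014 (log2) when 1 conceptus was left out. The share of summed RPKM held by the 10 genes was 0.978% when only features with a symbol entered the sum, since fewer features are summed. MT-ND6 against the heavy-strand median kept its direction throughout, from -2.38 with the mean in place of the median to -1.87 without conceptus 3; the fit over 12 heavy-strand features, added after the data were seen, gave -2.18. With a minimum mean of 1 RPKM, 3 of the 5 features nearest to MT-CO2 and 0 of the 5 nearest to MT-ND6 were shared with those named. No paired analysis was possible because all 4 libraries form 1 group. Unknown read depth limits the low values most, MT-ATP8 above all.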

Other observations

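Genes for the assembly of complex IV insert copper and haem into COX1 and MT-CO2 and join the subunits. Of the 22 on the list, 18 were measured. Of these, 16 averaged at least 1 RPKM and 14 at least 5, against 52.9% and 35.2% of the features with a symbol. The highest were COA4 at 49.3 ± 29.6, COA1 at 40.5 ± 11.3 and COX19, a copper-delivery factor, at 39.6 ± 9.12 RPKM (SD, n = 4). Of the 14, 7 were over 2 times between libraries, against 21.9% of the 6374 features averaging 5 RPKM or more. The list is small and was written with earlier results known, so nothing is read from this count. The 5 with the largest ratios were PET100, COA4, SURF1, COX16 and COX20. COA4 was at 92.3, 31.6, 27.9 and 45.5 RPKM in conceptuses 1 to 4. SURF1, a factor of early assembly around COX1, was at 41.3, 16.8, 24.2 and 50.1 RPKM. SCO2, a copper chaperone for the product of MT-CO2, was at 15.8, 7.44, 6.03 and 14.5 RPKM, lowest in conceptus 3; it was named after its values were seen. The summed level of the list was 407, 276, 260 and 309 RPKM.

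MT-ND1 and ND2, neighbours on the heavy strand apart from transfer RNA genes, stood in different proportion in different conceptuses. ND2 was 1.50 and 1.75 times MT-ND1 in conceptuses 1 and 4, and 3.90 and 4.11 times in conceptuses 2 and 3.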
